A study of Homo sapiens with 3 samples.

Results

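Baseline gene expression was described in RWPE1 cells carrying an empty retroviral vector. RWPE1 is a benign human prostate epithelial line, immortalised with human papillomavirus, and the vector is called PMN in the labels. Members were chosen from the unnormalised signals of this array alone: a probe had to have 1 gene symbol and a detection value above 0.99, and a gene took the signal of its brightest such probe. This left 7904 genes of the 16922 with a named probe, or 46.7%, and these are called detected below.

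The series also holds an array of RWPE1 cells overexpressing MYC and one of cells with the constitutively active PI3K mutant E545K, which are not analysed here. The vector group is 1 array of 1 infected population, so no value below has a replicate check and no test was made. Per the labels, the cells grew untreated in a serum-free keratinocyte medium with bovine pituitary extract and 5 ng/ml EGF. The detection value is 1 minus the detection p-value, so about 1% of probes with no target would be expected to pass.

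Prostate glands are lined by a basal cell layer, marked by keratins 5, 14 and 15 and anchored to laminin, under a secretory luminal layer that expresses keratins 8 and 18 and prostate kallikreins. Rare neuroendocrine cells lie among them, and fibroblasts, smooth muscle, vessels, nerves and leukocytes make up the stroma. A cultured line lacks the stroma, so genes of those cells show what the array reads where the cell type should be missing. Some of them were detected all the same, as given below, so these lists are not a set of silent genes.

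Detected genes spanned signals of 233.3 to 35181, with a median of 874. The brightest 100 genes held 15.4% of the summed signal of detected genes and the brightest 1000 held 56.1%. Genes just inside the limit, 30 with a detection value of 0.99096, had probes at 233.3 to 235.5. Just outside it, at 0.98946, lay 271 genes with probes at 217.5 to 233.3, so the limit cuts through a continuous range and no gap separates the 2 sides.

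**Figure D1:**
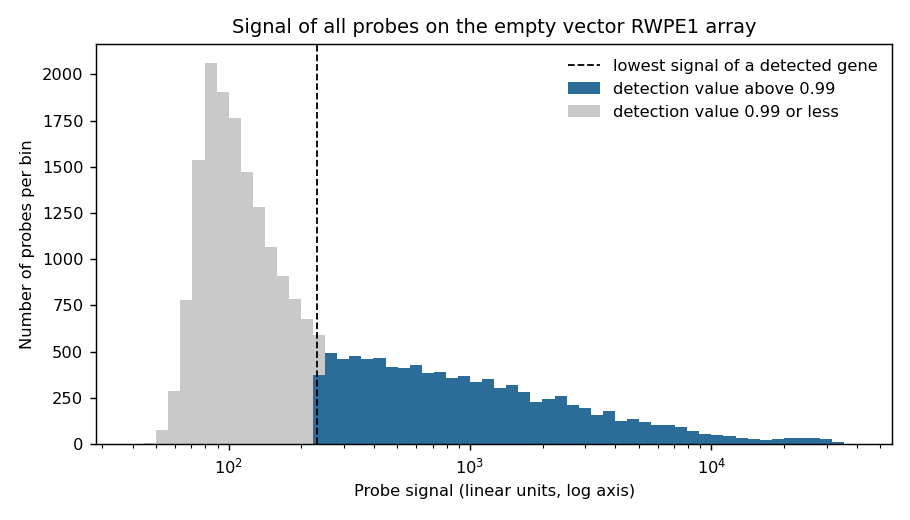
Number of probes by signal (linear units on a log axis) on the empty vector RWPE1 array, with detected probes in blue and the others in grey. Grey probes pile up near a signal of 100, detected probes form a long tail up to 35181, and the dashed line at 233.3 marks the lowest signal of a detected gene.

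Order by signal is not order by transcript amount, because probes differ in how well they bind. For the 882 genes with at least 2 detected probes, the SD of log2 signal between probes of the same gene was 1.31, and the brightest probe was a median 1.98-fold above the second. In 53 of them the gap exceeded 10-fold. Of 1836 detected genes with several probes, 1320 had at least 1 probe that was not detected, so a gene read by a single dim probe cannot be called silent. Neighbours in the order given below therefore do not differ beyond this spread, and the terms bright and dim refer to signal only.

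Markers of basal prostate cells were examined first. All 15 basal markers with a named probe were detected, against 46.7% of all genes, and their median signal was 2867. This count was 12 when most of a gene's probes, ties included, had to pass, and 14 under a stricter limit. For LAMB3, EGFR, DST and ITGA6, only the brightest probe passed. KRT14, the type I keratin of basal cells, was at 23640.4 and ranked 62 of all detected genes. Its partner KRT5 was at 17322 and ranked 126. KRT15, a further basal type I keratin, was at 2231 and ranked 1847, above the median of detected genes. All 3 keratins were thus clearly above the limit of 233.3. The simple keratins KRT7, KRT19 and KRT8, described below, were also detected and were each brighter than KRT15.

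CAV1, which coats the membrane pits called caveolae, was the third brightest basal marker at 17205. The hyaluronan receptor CD44 followed at 6629, and its 2 other probes gave 610.4 and 183.4. ITGB4, the integrin chain that joins hemidesmosomes to laminin, was at 4356, and LAMB3, a chain of laminin-332, at 3651. These adhesion genes form the attachment of basal cells to the basement membrane.

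EGFR, the receptor for the EGF in the medium, was at 3364. SLPI, a secreted protease inhibitor, was at 2867, CAV2 at 2664 and the calcium-binding protein S100A2 at 2398. ITGA6, the partner of ITGB4, was at 1223, the Notch ligand JAG1 at 957 and the hemidesmosome plakin DST at 641.5. NGFR, the low-affinity nerve growth factor receptor, was the dimmest at 249.8, close to the limit.

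Luminal genes were mostly not detected. Only 6 of 24 luminal markers with a named probe passed, a share below that of all genes on the array, and the other 18 had signals no higher than 191.4. The simple keratin KRT19 was the brightest at 7165. FKBP5, a chaperone of steroid receptors that both androgens and glucocorticoids induce, was at 4733, and the surface glycoprotein CD24 at 2822. KRT8 was at 2409, the transcription factor KLF5 at 1496 and FOXA1, a pioneer transcription factor, at 815.5.

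Other epithelia also express these genes. The genes that define luminal secretion were dim: KLK3, which encodes prostate-specific antigen, was at 82.1, KLK2 at 132.3, KLK4 at 84.0 and prostatic acid phosphatase ACP3 at 81.5. HOXB13, the homeobox factor of prostate, was at 73.5, the protease TMPRSS2 at 99.1, FOLH1, which encodes prostate-specific membrane antigen, at 113.2, MSMB, a seminal plasma protein, at 104.5 and the transporter SLC45A3 at 170.8. These 9 signals lie in the grey bulk of the histogram. KRT18, the partner of KRT8, was not detected either, with probes at 170.2 and 148.2, although KRT8 was at 2409.

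**Figure D2:**
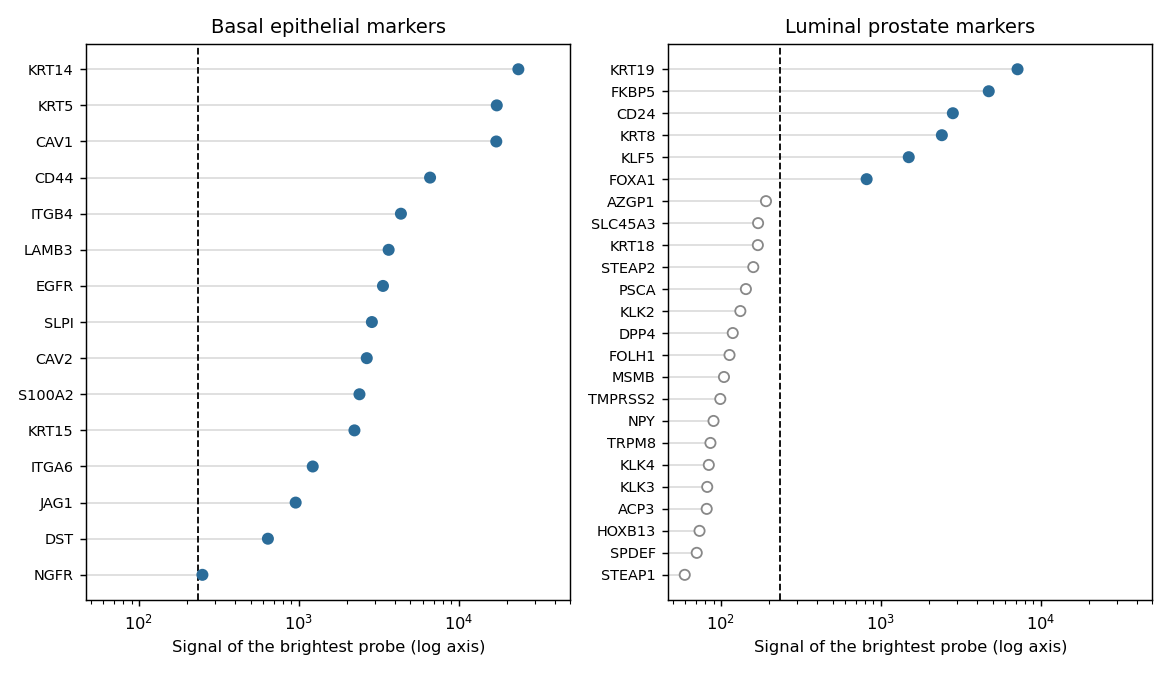
Signal of the brightest probe (log axis) of each basal (left) and luminal (right) marker gene on the vector array, with detected genes filled, others open, and the limit dashed. All 15 basal markers lie right of the limit, from NGFR at 249.8 to KRT14 at 23640.4, while 18 of 24 luminal markers lie left of it.

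Other epithelial programmes were present in part. Of 20 general epithelial genes, 15 were detected, led by KRT7, a simple epithelial keratin, at 14710 and the protease inhibitor SPINT2 at 11172. CLDN1, a tight junction claudin, was at 3991, the vesicle GTPase RAB25 at 3774 and E-cadherin CDH1 at 3534. EPCAM, often used to sort epithelial cells, was at only 517.7. OCLN, CLDN4, ESRP2, PRSS22 and MARVELD2 were not detected, with OCLN, a tight junction protein, at 88.4.

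Squamous differentiation genes were split, with 10 of 21 detected, close to the share of all genes. SFN, the 14-3-3 protein of stratified epithelium, was at 10108 and the hyperproliferation keratin KRT16 at 8180.0. KRT10, a keratin of suprabasal skin, was at 5706, the kallikrein KLK5 at 4341 and the factor KLF4 at 3319. Late products of the cornified layer were not detected: involucrin IVL was at 138.2, filaggrin FLG at 64.8 and transglutaminase TGM1 at 157.7. SPRR1B, a cornified envelope precursor, was just above the limit at 280.0. Of 9 club and hillock genes, LCN2 at 1519 and KRT13 at 388.1 were detected, and SCGB1A1, the club cell secretoglobin, was at 128.7.

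Keratins as a family were few but bright. Of 45 with a named probe, 11 were detected, a share of 24.4%, yet 6 of the 11 ranked among the brightest 1000. Type I keratins ran from KRT14 through KRT16, KRT19 (7165), KRT10 and KRT15 to KRT13 (388.1). Type II keratins were KRT5, KRT7 (14710), KRT6C (3282), KRT8 and KRT80 (491.2). Keratin paralogs resemble each other in sequence, so a probe may read more than 1 of them, and a KRT6C signal cannot be assigned to that copy alone. No probe is named for KRT6A or KRT6B here.

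Genes of stromal cells were rarely detected: 12 of 55 over the fibroblast, smooth muscle, endothelial and nerve lists, or 21.8%, against 46.7% of all genes. Of 19 fibroblast genes, 4 passed, with the intermediate filament VIM at 12491, a chain of type V collagen, COL5A1, at 2272, the matrix protein FBLN1 at 1424 and PDPN, also made by basal epithelium, at 809.3. The defining fibroblast genes did not pass: COL1A1 was at 206.8, COL1A2 at 97.1, COL3A1 at 89.0, decorin DCN at 129.9, lumican LUM at 79.1 and PDGFRA at 189.1. VIM is also made by many cultured epithelial cells.

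Smooth muscle genes gave 4 of 14, all below the median of detected genes: ACTA2 at 694.2, SMTN at 351.0, CALD1 at 327.9 and TAGLN at 296.7. The smooth muscle myosin MYH11 was at 89.5, calponin CNN1 at 86.2 and desmin DES at 86.7. Endothelial genes gave 1 of 14, ENG at 314.0, while PECAM1 was at 145.6, VWF at 65.6, CDH5 at 82.5 and KDR at 126.5. In the nerve and glia list 3 of 8 passed, led by MBP at 1832, whose 2 other probes, at 232.1 and 177.7, did not. The dimmest of the 3, NGFR at 249.8, is also counted among the basal markers above.

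Most leukocyte genes were not detected. Over the T and NK, B and plasma, myeloid and mast cell, and pan leukocyte lists, 9 of 65 were detected. This was 13.8%, against 46.7% of all genes. The 9 genes held 0.0574% of the summed signal, a share that depends on the genes listed. LAIR1, CCR6 and LILRB3, described at the end, are not in these lists, and LAIR1 alone held 0.183%. PTPRC, which encodes the common leukocyte antigen CD45, was at 105.4, CD3D and CD3E of the T cell receptor complex at 116.7 and 104.0, MS4A1, the B cell antigen CD20, at 158.6 and the macrophage receptor CSF1R at 91.4. All 19 T and NK genes were below the limit.

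Those that passed were spread over the B and plasma, myeloid and pan leukocyte lists. RAC2, a small GTPase, was at 3056, ARHGDIB at 1671, the calprotectin subunits S100A9 and S100A8 at 1337 and 767.6 and the lysosomal CD68 at 1278. RAC2, ARHGDIB, S100A9 and CD68 were thus above the median of detected genes. CD79B, SPN and CD14 were at 517.7, 303.3 and 307.4, and these 3 and CD68 each had at least 1 other probe below the limit, while ITGB2 was at 278.9. Of 10 MHC class II genes, which antigen-presenting cells express, only the invariant chain CD74 passed, at 246.6. HLA-DRA was at 88.2 and the class II transactivator CIITA at 69.6.

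Neuroendocrine genes were not detected: 0 of 14 passed, at a median of 120.8. Chromogranin CHGA was at 130.9, synaptophysin SYP at 86.1 and NCAM1 at 163.7, while the ubiquitin hydrolase UCHL1 at 233.0 stopped just short of the limit. With the limit lowered to 0.95, 4 of the 14 passed. As a measure of what a silent gene reads, 33 genes specific to tissues such as liver, muscle, eye and testis were examined. Of these 1 passed, the neuronal receptor subunit GRIN1 at 343.0 with its 2 other probes at 89.4 and 73.6, and the median of the 32 others was 89.55.

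**Figure D3:**
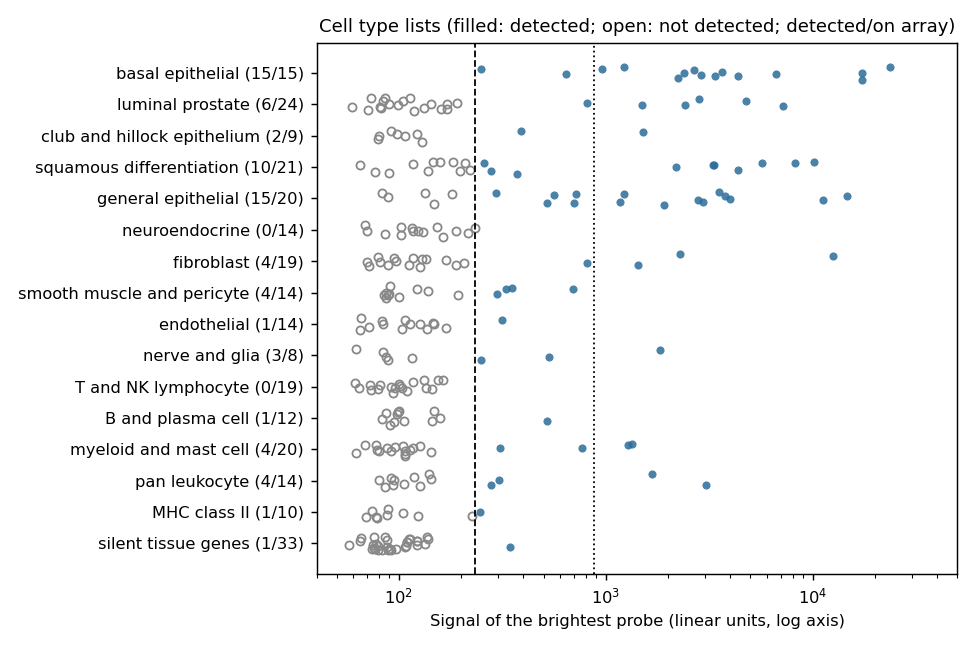
Signal of the brightest probe (log axis) of every gene with a named probe in 16 lists, filled where detected and open where not, with the limit dashed and the median of detected genes dotted. Detected and measured counts follow each name: basal genes are filled throughout (15 of 15), while luminal, stromal and leukocyte genes sit mostly among the open symbols at the level of the silent tissue genes.

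The brightest genes of the array were those of protein synthesis. Of the brightest 10 genes 8 encode ribosomal proteins, and the other two were EEF1A1, the elongation factor that brings tRNA to the ribosome, at 35181 and TPT1, a growth-linked protein, at 33416. RPS25 was at 34567, RPS12 at 34092 and RPL19 at 32875.0. Over both subunits 66 of 68 ribosomal protein genes were detected and 38 of these were among the brightest 100, a place held by 1.27% of detected genes. They held 7.70% of the summed signal, with a median of 22687.

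RPL10 and RPL37, named here after their values were seen, were the 2 that did not pass, with 1 probe each at 140.9 and 164.6. Ribosomal proteins have many processed copies in the genome, so single members are uncertain. All 35 translation factors were detected, at a median of 7797. EIF3E, a subunit of the initiation complex, was at 25360.1, the helicase EIF4A1 at 23068 and EEF1B2 at 22828, though the other probes of EEF1B2 fell as low as 827.3.

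Ribosomal protein and elongation factor transcripts are known for a pyrimidine tract at their 5′ end, through which growth signals control their translation. The start regions of the 6 brightest genes of the array, all of them ribosomal protein genes or on the translation factor list, are shown for that reason. Each is 30 bases, from 15 before to 15 after the RefSeq start on GRCh38.p14, with the longest run of C and T in capitals. The run may lie before the start, outside the annotated transcript, and in RPL19 it lies wholly there.
EEF1A1 (chr6:73521018-73521047, minus strand): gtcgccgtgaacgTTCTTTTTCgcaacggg
RPS25 (chr11:119018329-119018358, minus strand): tctgagcagcgCTTCCTTTTTgtccgacat
RPS12 (chr6:132814554-132814583, plus strand): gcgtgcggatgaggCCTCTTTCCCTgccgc
TPT1 (chr13:45341169-45341198, minus strand): agcggctgagtcggCCTTTTCCgcccgctc
RPL19 (chr17:39200268-39200297, plus strand): tgggCTCTCCCCTTCgcagataatgggagg
RPL38 (chr17:74203663-74203692, plus strand): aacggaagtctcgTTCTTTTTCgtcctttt

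A run of at least 8 anywhere in this window, before or after the start, was present in 47 of 57 detected ribosomal protein genes with a start in the table, or 82.5%. Over all genes on the array the share was 18.2%. Translation factors gave 11 of 27 (40.7%), respiratory chain genes 6 of 34 (17.6%) and proteasome genes 4 of 23 (17.4%). Among the brightest 100 genes, of which 38 encode ribosomal proteins, it was 53.6%, and in the next 900 it was 19.9%. The run is a description of the sequence around the annotated start, not of the transcript end alone, and says nothing of its use in these cells.

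Energy, protein turnover and cytoskeleton genes were detected almost throughout. All 40 respiratory chain genes were detected and 32 ranked among the brightest 1000, with the cytochrome oxidase subunits COX7C at 26359 and COX4I1 at 25283 and the ATP synthase subunit ATP5F1B at 21082. They held 2.42% of the summed signal. Of 20 glycolysis genes 19 passed, led by enolase ENO1 at 20825, GAPDH at 19143 and lactate dehydrogenase LDHA at 16206. ENO2, the neuronal enolase, was the exception at 189.1.

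All 27 proteasome subunits were detected, PSMA6 being the brightest at 16575, and all 24 chaperones, led by the small heat shock protein HSPB1 at 23084 and HSPD1 at 15830.3. Of 30 actin cytoskeleton genes 27 were detected and 6 were among the brightest 100: profilin PFN1 at 28666, thymosin TMSB10 at 26010.2, ACTG1 at 25001, ACTB at 22694, MYL12A at 22512 and MYL12B at 20927. All 11 housekeeping genes with a named probe passed, from ACTB down to PGK1 at 938.0, which was named after its value was seen.

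Division genes were detected in 33 of 36 cases, at a median of 2868. MKI67 (209.8), RRM2 (211.5) and CCNE2 (76.2), named after their values were seen, were the 3 below the limit, and MKI67 is a standard marker of dividing cells. UBE2C, which marks mitotic cyclins for destruction, was at 9482, the replication clamp PCNA at 7633, cyclin D1 CCND1 at 7306 and the mitotic activator CDC20 at 7085.0. Among cell cycle inhibitors, CDKN1A was at 8537 and CDKN2A at 3359 (other probes at 1468 and 160.4). MYC, which the study introduced in other cells, was at 6229 in the vector cells, rank 567, by its 1 probe.

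**Figure D4:**
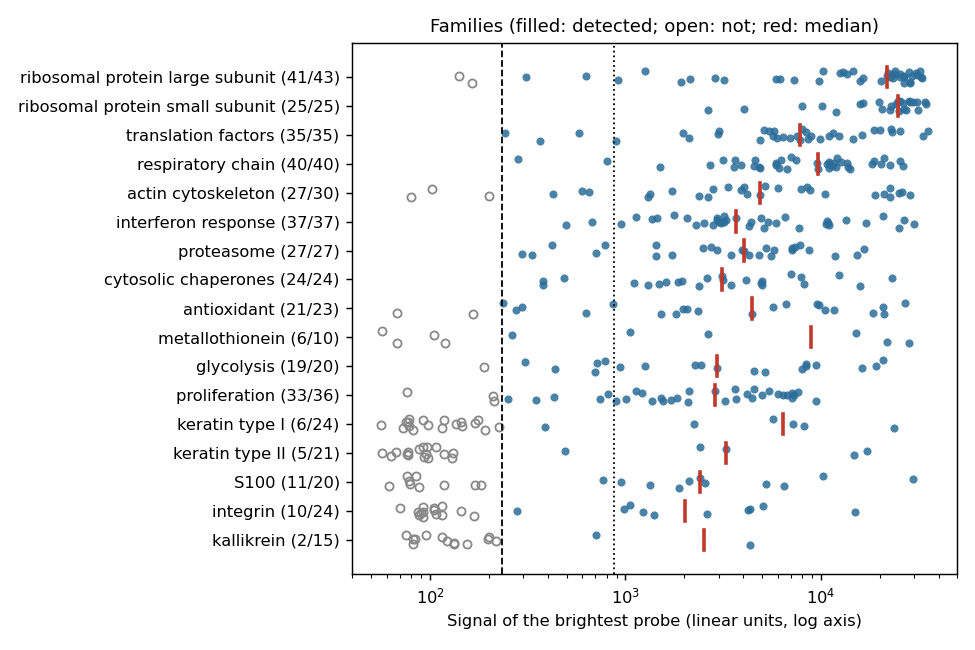
Signal of the brightest probe (log axis) of each member of 17 families, filled where detected and open where not, with a red bar at the median of detected members, the limit dashed and the median of all detected genes dotted. Ribosomal protein medians (21798 and 24758) lie farthest right, and most open symbols belong to keratins, integrins, S100 genes and kallikreins.

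Interferon-stimulated genes were detected throughout. They are induced when interferon binds its receptor and encode antiviral effectors. All 37 members with a named probe were detected, against 46.7% of all genes. The list was chosen with earlier results of these data known, so this count is a description and tests nothing. The 37 members had a median of 3661, 4 were among the brightest 100 and together they held 1.59% of the summed signal. Detection here says that their transcripts were read, and whether this signal is high for RWPE1 cells was not tested.

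The membrane restriction factor IFITM3 was at 29992 and ranked 13, but IFITM2 (25000.1) and IFITM1 (20905) are close in sequence, and the probes may not separate them. MX1, a GTPase that traps viral nucleocapsids, was at 26602, rank 34. IFI27 was at 16960.4, the ubiquitin-like modifier ISG15 at 13438, its conjugating enzyme UBE2L6 at 11054 and its ligase HERC5 at 10778. The modifier, a conjugating enzyme and a ligase of this system were thus all detected.

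IFIT1, which binds foreign RNA ends, was at 10621, OAS2, a synthetase activated by double-stranded RNA, at 7690.3 and IFI6 at 10922. Among signalling and sensing genes, IRF9 was at 6533, the sensor IFIH1 at 3208, IRF7 at 2298.0, IRF1 at 1769 and the sensor RIGI at 1444. The dimmest of the 37 were OAS3 at 670.4 and IFIT5 at 495.1, both above the limit. Antigen presentation genes were detected in 11 of 14 cases, with B2M, the light chain of class I molecules, at 13737, the peptide transporter TAP1 at 7178 and the immunoproteasome subunit PSMB8 at 2646. HLA-C, PDIA3 and ERAP1 did not pass, and HLA probes can depend on the allele.

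The element bound by the interferon factor complex repeats GAAA around a short spacer. Its core, taken as GAAA, any 2 bases and GAAA again, was searched on both strands in RefSeq promoter windows on GRCh38.p14, from 250 bases before to 50 after each start. Stretches upstream of the start are shown for 6 of the brightest interferon genes because they hold the core, given in capitals, which reads as TTTC, any 2 bases and TTTC where it lies on the opposite strand.
IFITM3 (chr11:320871-320927, minus strand): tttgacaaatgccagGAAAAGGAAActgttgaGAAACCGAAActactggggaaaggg
MX1 (chr21:41431839-41431878, plus strand): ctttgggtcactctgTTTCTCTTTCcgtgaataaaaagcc
IFITM1 (chr11:313985-314024, plus strand): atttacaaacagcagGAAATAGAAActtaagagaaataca
IFI27 (chr14:94110613-94110665, plus strand): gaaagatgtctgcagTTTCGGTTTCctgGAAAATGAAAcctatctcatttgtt
ISG15 (chr1:1013369-1013414, plus strand): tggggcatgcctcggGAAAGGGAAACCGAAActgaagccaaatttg
IFI6 (chr1:27672261-27672300, minus strand): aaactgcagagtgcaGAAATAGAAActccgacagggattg

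In ISG15 the 2 matches overlap, sharing their middle GAAA. At least 1 window held the core in 23 of the 31 interferon genes with a promoter in the table, or 74.2%, against 4.15% of all 13568 genes matched and 4.01% of all detected ones. Antigen presentation genes gave 7 of 10, ribosomal protein genes 4 of 57 and basal markers 0 of 10. The 23 interferon genes with the core had a median signal of 3661 and the 8 without one 2632, with ranges that overlap (495.1 to 29992 and 943.9 to 11054). A match is letters only, and its absence from these windows says nothing of binding elsewhere.

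**Figure D5:**
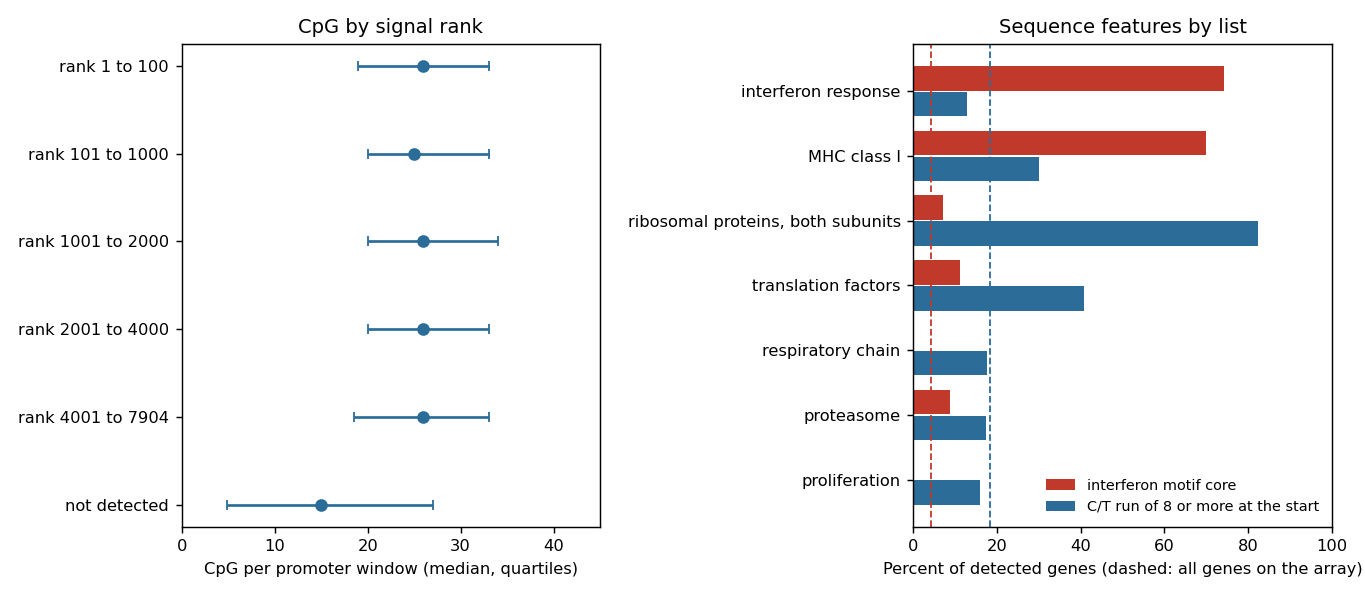
Left, number of CpG dinucleotides per promoter window (median with quartiles) by signal rank and for genes not detected. Right, percent of detected genes in 7 lists with the interferon motif core in a window (red) or a C and T run of at least 8 bases at the start (blue), with the share over all genes on the array dashed: the red bar is longest for interferon genes (74.2%) and the blue for ribosomal proteins (82.5%).

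Promoter composition was compared by detection and by signal rank. The median number of CpG per window was 26 in detected genes (quartiles 19 and 33) and 15 in genes not detected (quartiles 4.82 and 27). Within the detected genes it was 26 for the brightest 100 and 26 for the dimmest 3904. GC boxes, GGGCGG on either strand, were in 78.7% of detected genes and 53.7% of the others, while TATAAA was in 7.87% and 16.3%. Within the detected genes TATAAA also varied by rank, from 15.5% of the brightest 100 to 7.30% of the dimmest 3904. The quartiles of the classes overlap and genes are not replicates, so the values carry no test.

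Cell contact families were detected in part. Of 24 integrin chains 10 were detected, a share of 41.7% that is near the 46.7% of all genes: the common beta chain ITGB1 was at 14912, ITGA3 at 5059, ITGB4 at 4356, ITGB5 at 4244 and ITGAE at 2625.0, followed by ITGAV, ITGA6, ITGA2 and ITGA5 between 980.5 and 1402 and ITGB2 at 278.9. Laminins gave 5 of 10, also near that share, with LAMA5 at 12806, LAMC1 at 3971, LAMB3 at 3651, LAMB1 at 1898 and LAMB2 at 366.6.

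Of 18 desmosome and hemidesmosome genes 12 were detected, or 66.7%, against 46.7% of all genes. The tetraspanin CD151 was the brightest at 10531 and plakoglobin JUP was next at 7727. The other probes of CD151 and JUP were far lower, at most 597.0 for CD151 and 371.2 for JUP. Desmoplakin DSP (95.4) and the desmocollins DSC1 (85.8), DSC2 (209.1) and DSC3 (153.6), named after their values were seen, did not pass. Collagens gave 10 of 30, or 33.3%, a share below that of all genes. They were led by COL7A1 at 5973, which forms the anchoring fibrils under basal cells. Of 19 claudins 7 were detected, or 36.8%, also below it, with CLDN1 at 3991 and CLDN7 at 2802 above CLDN14 at 842.7.

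Among calcium-binding proteins, 11 of 20 S100 genes (55.0%) and 8 of 12 annexins (66.7%) were detected. The S100 share is near the 46.7% of all genes. S100A10 was at 29773, rank 14, and its partner ANXA2 at 25297, though 2 further ANXA2 probes gave 1354 and 862.9. S100A6 was at 10216 and ANXA1 at 16277. Kallikreins gave 2 of 15, KLK5 at 4341 and KLK10 at 711.0, and the prostate kallikreins were not among them.

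Within the EGF receptor family, EGFR was joined by ERBB2 at 1190 and ERBB3 at 409.7, and the ligands HBEGF at 2380 and TGFA at 1454 were detected. EGF itself, which the medium supplies, was not detected at 124.5, a value named after it was seen. For EGFR, ERBB2 and ERBB3 the remaining probes were below the limit. Lineage transcription factors gave 20 of 42, or 47.6%, near the 46.7% of all genes. Among them were the homeobox factor PITX1 at 9290.5, the inhibitor of differentiation ID1 at 6654, SOX15 at 5926, TFAP2A at 3891, SNAI2 at 3561 and KLF4 at 3319.

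Secreted genes included the protease inhibitors CST3 at 11818, CSTB at 7947, TIMP1 at 7497 and SERPINB5, also called maspin, at 5064. Matrix and matricellular genes gave 19 of 28, or 67.9%. Among them were the galectin LGALS1 at 21136, IGFBP6 at 8528, EFEMP1 at 8377, TGFBI at 7963, DKK3 at 6989 and CCN2 at 6410. Of 19 matrix proteases 10 passed, or 52.6%, near the 46.7% of all genes. The cathepsins CTSL at 3406, CTSV at 3237 and CTSB at 3103 were the brightest. Plasminogen activator PLAU was at 2372.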

How the data were processed

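Signals came from 1 Illumina array of empty vector RWPE1 cells. The authors deposited signal intensity values that were not normalised, per the file headers, and the submitters' processing notes list GenomeStudio (version not given in the sources used here). Beside each signal they deposited a detection value, a fraction from 0 to 1 that the header calls a p-value. It ranked with the signal (rank correlation 0.976 over 24526 probes), so it was read as 1 minus the p-value. The columns of the other samples, 2 further value columns whose headings match no sample, and the deposited table of processed values were not used.

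GEO's probe annotation gives a single symbol for 21834 probes, more than one for 0, and leaves 2692 without a name here. Symbols were updated by gene ID (21813 matched), giving 16922 genes. Signals were used without background correction or normalisation, with pandas 2.3.3 in Python 3.11.15, and limma 3.58.1 supplied one alternative (normexp, offset 50). Gene selection was checked on simulated data. RefSeq promoter windows (GRCh38.p14) matched 13568 genes, and a gene held a feature where any of its windows did. No genome build is named for the array.

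Members and the 50 gene lists were chosen with earlier results of these data known, and the sequence features after the lists were seen. Genes that could be named were the 40 brightest, up to 6 brightest members per list, KRT5, KRT14, KRT15 and MYC. Detected members of the epithelial, neuroendocrine, stromal and immune lists and of families with 12 or fewer could also be named. So could up to 10 undetected members of those epithelial, neuroendocrine, stromal and immune lists. Interferon, cytokine and MHC lists count as immune. Not every gene that could be named is given. Genes outside this rule are marked as such. No test was made, because there is 1 array.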

Additional observations from a re-analysis of the deposited data

Results flagged for a closer look

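Probes with no gene name here were outside the description above, and 793 of these 2692 probes had a detection value above 0.99. That is 29.5% of them, against 40.8% of the named probes. The brightest reached 33640, and 20 of them exceeded the signal of the hundredth brightest named gene. Their genes are not reported here.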

How the results depend on the processing

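Each list and gene rests on 1 array, often on 1 probe, and signals near 233.3 are at the limit of what the array separates from background. The number of detected genes was 9476 with a detection value above 0.95, 7288 under a stricter limit and 7488 when most of a gene's probes, ties included, had to pass. Shares of the summed signal moved by less than 1.5 times under the other background and probe settings in the lists of the report, except desmosome and hemidesmosome genes (0.132% with the mean of detected probes). With probes averaged over detected ones 32 of the 40 brightest genes and 88 of the brightest 100 remained, and over all probes 29 and 85.

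Some counts of list members moved by more than 1.5 times. Above 0.95, detected members were 4 for neuroendocrine, 7 for fibroblast, 2 for endothelial, 1 for T and NK lymphocyte and 2 for MHC class II genes, and 10 for type I keratins, 17 for collagens, 5 for kallikreins and 14 for nuclear receptors. Under the stricter limit MHC class II gave 0. Requiring most of the probes gave 2 for smooth muscle, 0 for B and plasma cell, 0 for MHC class II and 0 for the silent tissue genes, and 2 for the EGF receptor family. Averaging detected probes moved the signal by more than the spread between probes for CLUAP1 (9550.0), ANXA2 (9171), CD151 (3877) and JUP (2784). A gene with 1 detected probe cannot move in that setting, even where its other probes are dim. Such genes include GNAS and SLC7A5P2, whose means over all probes were 8773 and 13566. No paired analysis was possible because only 1 array was used, and leaving out a replicate was not possible for the same reason.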

Other observations

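Protective genes formed a further bright group. Of 10 metallothioneins, which bind zinc and copper, 6 were detected, or 60.0%, against 46.7% of all genes. MT2A was at 28255, rank 23, MT1X at 21826 and MT1E at 15079. These copies are close in sequence and their probes may not separate them. Of 23 antioxidant genes 21 passed, led by the glutathione transferase GSTP1 at 26878, rank 30, thioredoxin TXN at 20994, the ferritin light chain FTL at 20682 and GPX4 at 18554. Of 18 genes that p53 induces or that report on it, 15 were detected, with CDKN1A at 8537, ZMAT3 at 6591 and GADD45A at 4862.

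Inflammatory genes were detected in 15 of 27 cases, or 55.6%, near the 46.7% of all genes. IL18, a cytokine that epithelia store as a precursor, was at 19260.4, IL1A at 7844, the acute-phase gene SAA1 at 6378 and IL1B at 2680.5. CXCL8 was at 1612, CXCL10 at 1355, CCL5 at 1246, CCL2 at 776.7 and IL6 at 592.3, while CXCL1, CXCL3 and TNF were not detected (191.7, 192.4 and 76.0). Of 26 nuclear receptors 9 passed, or 34.6%. RXRA, the shared partner of several receptors, was at 6077 and ESRRA, an orphan receptor, next at 875.6.

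Some of the brightest probes carry names of genes known mainly from leukocytes. LAIR1, an inhibitory receptor, was at 30383, rank 12, by its 1 probe. CCR6 was at 23603 and LILRB3 at 18729, both named after their values were seen, and their second probes were at 73.7 and 128.2. The general leukocyte gene PTPRC was at 105.4. Similar gaps between probes occurred for CLUAP1 (27668, with 664.6 and 317.1) and GNAS (26055, with 196.1 and 67.4). Which transcripts these probes read was not tested.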
